A study of Homo sapiens with 9 samples.

Results

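The genes described here encode the enzymes that make purine and pyrimidine nucleotides and turn them into deoxynucleotides. The list named 35 genes, of which 33 had a probe set annotated to that gene symbol alone, out of 19775 genes measured in this way. ADSS2 and UCK2 had no such probe set and were not analysed here. All 33 lay above the signal level required for testing. Expression was measured on short-oligonucleotide arrays in the Daudi line of B cells, which derives from a Burkitt lymphoma. All cells were infected with a short hairpin RNA and selected with puromycin for 48 h. The hairpin was a control (Ctrl-sh), was directed against SLC7A5 (Slc7a5-sh) or was directed against MYC (C-Myc-sh), with 3 arrays in each of the 3 groups and 9 arrays in all. SLC7A5 forms, with a heavy chain, a carrier that takes up large neutral amino acids, and the labels call the MYC hairpin the positive control. The arrays are labelled as biological replicates, but the labels do not say whether each came from its own infection, nor how many hairpin sequences were used per target. The p-values therefore measure the spread between these arrays.

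Purine nucleotides are built on phosphoribosyl pyrophosphate (PRPP) through a chain of reactions that ends in inosine monophosphate (IMP), from which the adenine and guanine nucleotides branch. Pyrimidines are assembled as a ring that is attached to PRPP, giving uridine monophosphate and then cytidine triphosphate. Ribonucleotide reductase converts ribonucleoside diphosphates to deoxyribonucleotides, thymidylate synthase makes the thymine nucleotide, and salvage enzymes recycle free bases and nucleosides. MYC is a transcription factor that binds DNA with its partner MAX, preferentially at the E-box letters CACGTG, and genes of nucleotide synthesis are among its known targets in B cells.

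Both targeted transcripts were lower in their own knockdown. The log2 signal of SLC7A5 was 12.21 ± 0.15 (SD, n = 3) in the control, 11.89 ± 0.06 with the SLC7A5 hairpin and 11.80 ± 0.03 with the MYC hairpin. It thus stood at 80.0% of Ctrl-sh under its own hairpin (log2 change -0.32, adjusted p = 0.00414) and at 75.4% under the MYC hairpin (adjusted p = 0.000186). MYC was 13.22 ± 0.05, 12.87 ± 0.07 and 12.13 ± 0.01 in the same order, that is 78.7% of Ctrl-sh in Slc7a5-sh (adjusted p = 0.00038) and 46.9% in C-Myc-sh (adjusted p = 4.7e-10). Of the B-cell markers with a usable probe set, 9 of 9 lay above the level required for testing, as did 2 of 10 T and NK cell markers, 0 of 8 myeloid markers and 4 of 10 epithelial and fibroblast markers. Array medians ran from 6.05 to 6.26 and the correlation between arrays of the same group was 0.972 to 0.977 over the 11250 genes tested.

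The promoters are shown first, since MYC is one of the 2 targets. RefSeq windows of the GRCh38.p14 build, from 250 bases before to 50 bases after an annotated start, were found for 32 of the 35 genes. CACGTG, which reads the same on both strands, occurred in 6 of 32 genes (18.8%), against 8.77% of all 27305 genes with such windows. The 6 were PPAT, PAICS, ATIC, DHODH, DCK and NME1. A gene can have several windows, 51 for these 32 genes and 35097 for all 27305, and shares per gene rise with their number. By window, CACGTG occurred in 6 of 51 against 2546 of 35097. The following stretches lie upstream of the start and are printed 5′ to 3′ on the strand of the gene, with CACGTG in capitals.
PPAT, chr4:56435780-56435809, minus strand: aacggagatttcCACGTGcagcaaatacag
ATIC, chr2:215312001-215312030, plus strand: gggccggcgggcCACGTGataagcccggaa
DHODH, chr16:72008573-72008602, plus strand: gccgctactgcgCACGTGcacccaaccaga
DCK, chr4:70993521-70993550, plus strand: cgccccggccttCACGTGacctggcgtgcg

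The first capital lay 182 bases before the start in PPAT, 46 in ATIC, 159 in DHODH and 116 in DCK. PPAT and PAICS, which encode enzymes of the same pathway, are transcribed away from each other from starts 137 bases apart, so the CACGTG printed for PPAT also lies 40 bases after that start of PAICS. The same copy was thus counted for both genes. In PAICS, NME1 and a further copy in ATIC the letters lay after the start.

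A second search used 4 forms of the site read by E2F factors, which drive genes at the entry into S phase: TTTCGCGC, TTTGGCGC, TTTCCCGC and TTTGCCGC, on both strands. At least 1 of them occurred in 5 of 32 genes (15.6%), against 3.99% of all genes: PRPS2, GART, TYMS, DUT and DCK. By window, the counts were 5 of 51 against 1164 of 35097. The matching letters are in capitals below, and GCGGGAAA is TTTCCCGC read from the other strand.
PRPS2, chrX:12791389-12791411, plus strand: agccgccgcgcTTTCCCGCtccc
GART, chr21:33542344-33542367, minus strand: agcatTTTGGCGCtcccccccggc
TYMS, chr18:657603-657632, plus strand: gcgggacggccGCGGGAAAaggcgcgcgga
DUT, chr15:48332144-48332173, plus strand: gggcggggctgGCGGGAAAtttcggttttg
DUT, chr15:48332159-48332188, plus strand: gaaatttcggtTTTGGCGCgctccctgcgg

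The 2 DUT stretches overlap, and their sites begin 42 and 27 bases before the start. CCAAT, a common promoter element searched on both strands, occurred in 13 of 32 genes (40.6%) and in 39.7% of all genes. These matches are descriptions of the letters in the windows and not measurements of binding.

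In C-Myc-sh nearly the whole set was lower than in Ctrl-sh. Of the 33 genes, 30 fell, 2 rose (SAMHD1 and CTPS2) and 1 was not called (CMPK1), at an adjusted p under 0.05 in limma. Across all 11250 tested genes 26.2% were called lower and 28.7% higher. The median log2 change of the 33 was -0.90, against 0.04 for all tested genes, and 12 of them were lower by a factor of 2 or more. All 3 C-Myc-sh arrays lay below all 3 Ctrl-sh arrays for 30 of 33 genes, a separation seen in that direction for 29.1% of tested genes. Ranked by change, 19 of the 33 were among the 10% of tested genes with the lowest values. The members were proposed with results of these arrays in view, so the counts describe them and give no independent support.

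The Slc7a5-sh cells changed less and in fewer of these genes. Against Ctrl-sh, 11 of 33 fell, where 11.0% of tested genes were called lower, and 1 rose (CTPS2), where 14.3% were called higher. The other 21 were not called. The median change was -0.14, against 0.03 for all tested genes, 2 of the 33 were among the lowest 10%, and 0 were lower by a factor of 2. The 3 Slc7a5-sh arrays lay below the 3 Ctrl-sh arrays for 15 of 33 genes, against 18.0% of tested genes. The count of 11 dropped to 7 without Ctrl-sh replicate 3, which removed the calls of DCK, HPRT1, PRPSAP1 and PRPSAP2. No gene of the 33 was called in opposite directions in the 2 knockdowns, and since both are measured against the same control arrays, their values are given side by side only.

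**Figure D1:**
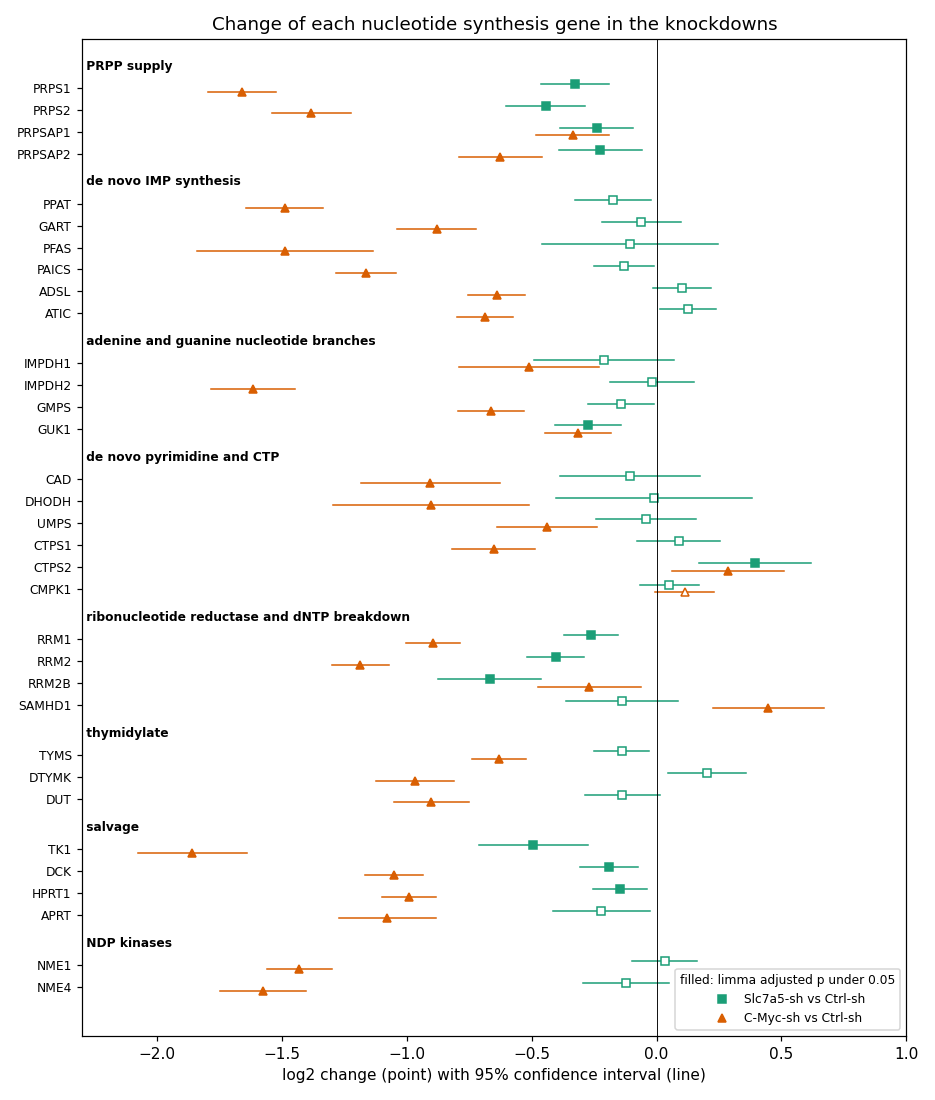
Log2 change of each of the 33 genes against Ctrl-sh, grouped by role, in Slc7a5-sh (green squares) and C-Myc-sh (orange triangles). Lines are 95% confidence intervals, and filled symbols have a limma adjusted p under 0.05. Most orange symbols lie left of -0.5, while the green symbols lie between -0.67 and 0.39.

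The knockdowns were also compared directly. In C-Myc-sh against Slc7a5-sh, 26 of 33 genes were lower, 2 were higher (SAMHD1 and RRM2B) and 5 were not called, with a median change of -0.80 against 0.03 for all tested genes. Of all tested genes 25.1% were called lower and 24.4% higher in this comparison. The C-Myc-sh arrays lay wholly below the Slc7a5-sh arrays for 26 of 33 genes, against 27.7% of tested genes. A full order, with every C-Myc-sh array below every Slc7a5-sh array and every Slc7a5-sh array below every Ctrl-sh array, was found for 12 of 33 genes and for 7.02% of tested genes.

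**Figure D2:**
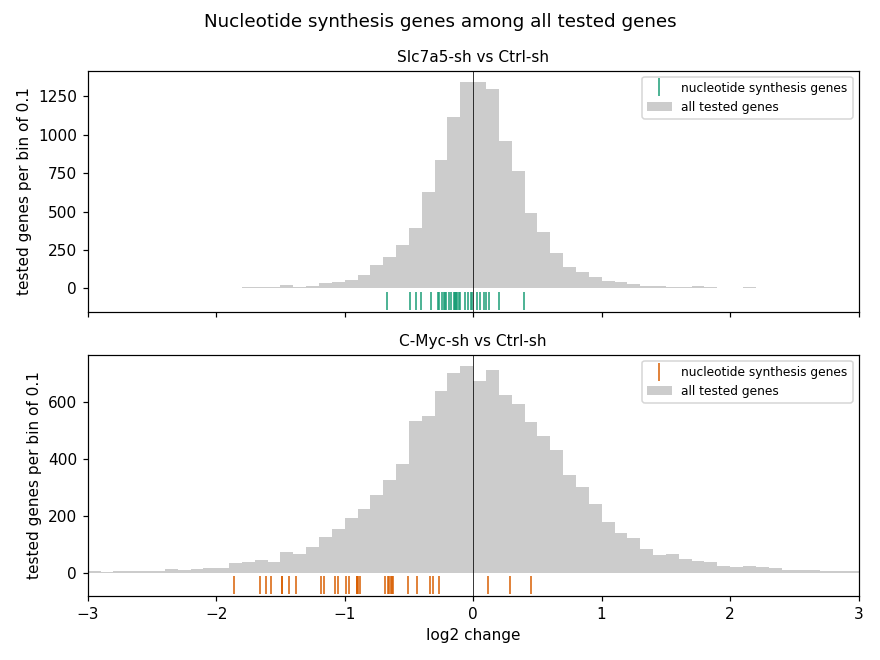
Histograms of the log2 change of the 11250 tested genes in bins of 0.1, for Slc7a5-sh (top) and C-Myc-sh (bottom) against Ctrl-sh, with a coloured tick for each of the 33 nucleotide synthesis genes. Genes beyond 3 in either direction fall outside the plotted range. The ticks stay near the centre in the top panel, with a median of -0.14, and lie in the left part of the bottom panel, with a median of -0.90.

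PRPP is the activated ribose shared by purine, pyrimidine and salvage reactions. The transcripts of all 4 genes for its synthetases and their partners fell in both knockdowns. PRPS1, an X-linked PRPP synthetase, gave log2 signals of 12.64, 12.77 and 12.69 in Ctrl-sh, 12.45, 12.27 and 12.39 in Slc7a5-sh, and 11.08, 10.98 and 11.05 in C-Myc-sh. The 3 groups of arrays did not overlap and followed one another in that order. The change was -0.33 ± 0.06 (SE) in Slc7a5-sh (adjusted p = 0.00165) and -1.66 ± 0.06 in C-Myc-sh (adjusted p = 3.12e-11), which leaves 31.6% of the Ctrl-sh signal. PRPS2, the second synthetase, whose promoter holds one of the E2F stretches above, changed by -0.44 in Slc7a5-sh (adjusted p = 0.000595) and by -1.38 in C-Myc-sh (adjusted p = 9.78e-10). The synthetase-associated proteins, which are regulatory partners without the synthetic activity, moved less. PRPSAP1 changed by -0.24 and -0.34 and PRPSAP2 by -0.22 and -0.63, in Slc7a5-sh and C-Myc-sh respectively. In the direct comparison PRPSAP1 was not called (-0.10, adjusted p = 0.258), whereas the other 3 were lower in C-Myc-sh. The Slc7a5-sh call of PRPSAP1 was lost without Ctrl-sh replicates 2 or 3 or Slc7a5-sh replicate 1, and with its probe sets averaged. That of PRPSAP2 (adjusted p = 0.0463) was lost without any 1 of the Ctrl-sh or Slc7a5-sh arrays or C-Myc-sh replicate 3. The PRPSAP2 call was also lost without a filter, without a trend, with averaged probe sets, without _s_at and _x_at probe sets and with the replicate block.

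The 6 genes of the pathway from PRPP to IMP fell in C-Myc-sh, and 0 of the 6 were called in Slc7a5-sh. PPAT, the amidotransferase that catalyses the committed step, gave 11.93, 11.89 and 11.92 in Ctrl-sh, 11.82, 11.67 and 11.72 in Slc7a5-sh, and 10.31, 10.54 and 10.42 in C-Myc-sh. Its Slc7a5-sh arrays lay just below the control arrays, with a change that was not called (-0.18, adjusted p = 0.0894), and its C-Myc-sh arrays lay far below both groups (-1.49 ± 0.07, adjusted p = 3.22e-10). PAICS, the bifunctional enzyme on the other side of the shared promoter, changed by -1.17 ± 0.06 in C-Myc-sh (adjusted p = 3.38e-10) and by -0.13 in Slc7a5-sh (adjusted p = 0.107). PFAS, which acts between GART steps, changed by -1.49 in C-Myc-sh with the widest spread of the set there, an SD of 0.41 over 3 arrays. GART, a trifunctional enzyme, changed by -0.88, and ADSL, which also serves the branch to adenine nucleotides, by -0.64. ATIC catalyses the closing steps that yield IMP. It gave 13.06, 13.03 and 12.98 in Ctrl-sh, 13.22, 13.09 and 13.15 in Slc7a5-sh, and 12.34, 12.32 and 12.36 in C-Myc-sh. For ATIC and ADSL the Slc7a5-sh arrays were all above the control arrays, by means of 0.13 (adjusted p = 0.0991) and 0.10 (adjusted p = 0.188), and neither was called. With quantile normalization ATIC was called higher (0.15, adjusted p = 0.0262) and PAICS lower (-0.13, adjusted p = 0.045) in Slc7a5-sh. All 6 genes were lower in C-Myc-sh than in Slc7a5-sh, with log2 changes between -1.38 and -0.74.

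On the branches to adenine and guanine nucleotides 4 genes were measured, and all 4 fell in C-Myc-sh. IMPDH2, the inosine monophosphate dehydrogenase typical of dividing lymphocytes, gave 12.21, 12.40 and 12.31 in Ctrl-sh and 12.41, 12.20 and 12.25 in Slc7a5-sh, which overlap. In C-Myc-sh it gave 10.80, 10.71 and 10.57, a change of -1.62 ± 0.08 (adjusted p = 3.45e-10), and the change in Slc7a5-sh was -0.02 (adjusted p = 0.883). Its isoenzyme IMPDH1 changed by -0.51 in C-Myc-sh (adjusted p = 0.004) and was not called in Slc7a5-sh or in the direct comparison (-0.30, adjusted p = 0.0727, called without Slc7a5-sh replicate 1 or C-Myc-sh replicate 3 and with quantile normalization). GMPS, which aminates xanthosine monophosphate to GMP, changed by -0.66 in C-Myc-sh. Its lower signal in Slc7a5-sh (-0.14, adjusted p = 0.103) was called without Slc7a5-sh replicate 3 (-0.21). GUK1, the guanylate kinase, fell by similar amounts in both knockdowns, by 0.27 in Slc7a5-sh (adjusted p = 0.00428) and by 0.32 in C-Myc-sh (adjusted p = 0.00045). Their difference was -0.04 with a 95% interval from -0.17 to 0.09. Both GUK1 calls were lost when its probe sets were averaged (-0.20 and -0.44).

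The pyrimidine genes separated into a group that fell in C-Myc-sh and a pair that did not. CAD carries the opening 3 activities of the pathway in a single protein. It gave 10.54, 11.00 and 10.55 in Ctrl-sh, 10.72, 10.38 and 10.66 in Slc7a5-sh, and 9.96, 9.66 and 9.75 in C-Myc-sh. The control and Slc7a5-sh arrays overlapped, and the C-Myc-sh arrays lay below both (-0.91 ± 0.13, adjusted p = 2.93e-05). DHODH, the mitochondrial dehydrogenase, changed by -0.90 ± 0.18 in C-Myc-sh (adjusted p = 0.000673) and UMPS, which forms uridine monophosphate, by -0.44 (adjusted p = 0.000958). CTPS1, the CTP synthetase needed by proliferating lymphocytes, changed by -0.65 (adjusted p = 4.45e-06). None of these 4 was called in Slc7a5-sh, where the changes lay between -0.11 and 0.09. CTPS2, the second CTP synthetase, gave 10.15, 10.18 and 10.22 in Ctrl-sh, 10.35, 10.67 and 10.72 in Slc7a5-sh, and 10.39, 10.63 and 10.40 in C-Myc-sh. Every knockdown array lay above every control array, with changes of 0.39 ± 0.10 (adjusted p = 0.0124) and 0.29 ± 0.10 (adjusted p = 0.03). The C-Myc-sh call of CTPS2 was lost without any 1 of the 3 Ctrl-sh arrays or C-Myc-sh replicate 2, and the Slc7a5-sh call without Slc7a5-sh replicate 3 (0.32). CMPK1, the kinase of UMP and CMP, differed from Ctrl-sh by 0.11 in C-Myc-sh (adjusted p = 0.0986) and by 0.05 in Slc7a5-sh, and a second probe set of it was called higher in C-Myc-sh (0.24, adjusted p = 0.0124). With quantile normalization CMPK1 was called higher in C-Myc-sh than in Ctrl-sh (0.27, adjusted p = 0.00083) and than in Slc7a5-sh (0.19, adjusted p = 0.0096), and CTPS2 lost its C-Myc-sh call (0.21, adjusted p = 0.114), so which of the pair was called higher in C-Myc-sh depended on the scaling.

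Ribonucleotide reductase consists of a large subunit, RRM1, and a small subunit that is either RRM2, made in S phase, or the p53-inducible RRM2B. RRM2 gave 13.92, 13.90 and 13.82 in Ctrl-sh, 13.51, 13.46 and 13.47 in Slc7a5-sh, and 12.63, 12.68 and 12.77 in C-Myc-sh. The groups did not overlap, with changes of -0.41 ± 0.05 (adjusted p = 8.95e-05) and -1.19 ± 0.05 (adjusted p = 1.62e-10). RRM1 followed the same order, at -0.26 in Slc7a5-sh (adjusted p = 0.00148) and -0.90 in C-Myc-sh (adjusted p = 1.4e-09). RRM2B had another order, and its arrays are given here after its values were seen. They read 11.35 on all 3 Ctrl-sh arrays, 10.62, 10.93 and 10.50 in Slc7a5-sh, and 11.14, 11.15 and 10.96 in C-Myc-sh. The Slc7a5-sh arrays were thus the lowest, with a change of -0.67 ± 0.10 (adjusted p = 0.000191) against -0.27 ± 0.10 in C-Myc-sh (adjusted p = 0.0275), and the knockdowns differed by 0.40 (adjusted p = 0.003). The C-Myc-sh call of RRM2B was lost without any 1 of the 3 Ctrl-sh arrays or C-Myc-sh replicate 3 (-0.21).

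SAMHD1, which hydrolyses deoxynucleoside triphosphates, was the member with the largest rise. It gave 10.99, 11.08 and 10.82 in Ctrl-sh, 10.91, 10.59 and 10.98 in Slc7a5-sh, and 11.56, 11.37 and 11.31 in C-Myc-sh. The C-Myc-sh arrays lay above both other groups, which overlapped. The change was 0.45 ± 0.10 in C-Myc-sh (adjusted p = 0.00199), -0.14 in Slc7a5-sh (adjusted p = 0.367) and 0.59 between the knockdowns (adjusted p = 0.000262). SAMHD1 had 4 other probe sets at or above the level required for testing. In C-Myc-sh 1 of them was also called higher, at 0.29, and the remaining 3 were not called, at 0.19, -0.23 and -0.28. In Slc7a5-sh 1 of these 4 was called lower (-0.39, adjusted p = 0.00563), and this is the probe set that stands for SAMHD1 when _s_at and _x_at probe sets are left out. The probe set used ends in _x_at and can bind related transcripts; the C-Myc-sh call was lost with the mean of all probe sets (0.23) and without such probe sets (0.19).

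All 3 thymidylate genes fell in C-Myc-sh and 0 were called in Slc7a5-sh. DTYMK, the thymidylate kinase, gave 12.04, 12.26 and 12.16 in Ctrl-sh, 12.23, 12.38 and 12.44 in Slc7a5-sh, and 11.15, 11.26 and 11.13 in C-Myc-sh. Its Slc7a5-sh arrays overlapped the upper end of the controls (0.20, adjusted p = 0.0579), whereas the C-Myc-sh arrays lay below both (-0.97 ± 0.07, adjusted p = 3.47e-08). TYMS, thymidylate synthase, changed by -0.63 in C-Myc-sh (adjusted p = 7.39e-08) and by -0.14 in Slc7a5-sh (adjusted p = 0.0579). DUT, which removes dUTP and supplies dUMP, changed by -0.90 (adjusted p = 4.44e-08) and -0.14 (adjusted p = 0.169) respectively. In Slc7a5-sh DTYMK was called higher without Ctrl-sh replicate 2 (0.25) or Slc7a5-sh replicate 1 (0.26), and TYMS lower without Slc7a5-sh replicate 3 (-0.17) or C-Myc-sh replicate 1 (-0.14). TYMS was also called lower there with quantile normalization (-0.13, adjusted p = 0.0103), and DUT with its probe sets averaged (-0.32, adjusted p = 0.00115).

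The 4 measured salvage genes fell in C-Myc-sh and 3 of them in Slc7a5-sh. TK1, the thymidine kinase of dividing cells, had the lowest change of the whole set. It gave 11.04, 11.14 and 10.92 in Ctrl-sh, 10.40, 10.48 and 10.73 in Slc7a5-sh, and 9.13, 9.27 and 9.12 in C-Myc-sh. The 3 groups did not overlap, at -0.49 ± 0.10 in Slc7a5-sh (adjusted p = 0.00263) and -1.86 ± 0.10 in C-Myc-sh (adjusted p = 1.21e-09), which leaves 27.6% of the Ctrl-sh signal. DCK, the deoxycytidine kinase, changed by -0.19 in Slc7a5-sh (adjusted p = 0.0184) and by -1.05 in C-Myc-sh (adjusted p = 6.36e-10). HPRT1, which salvages hypoxanthine and guanine, changed by -0.15 (adjusted p = 0.043) and -0.99 (adjusted p = 4.91e-10). APRT, which salvages adenine, changed by -0.22 in Slc7a5-sh (adjusted p = 0.0886) and by -1.08 in C-Myc-sh (adjusted p = 1.13e-07). In Slc7a5-sh the call of DCK was lost without Ctrl-sh replicates 1 or 3 or Slc7a5-sh replicate 3, and in limma without a trend. That of HPRT1 was lost without any 1 of the Ctrl-sh arrays or Slc7a5-sh replicates 1 or 2. The HPRT1 call was also lost without a filter, without a trend, with quantile normalization, with averaged probe sets and with the replicate block. APRT was called there without Slc7a5-sh replicate 3 (-0.31).

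The nucleoside diphosphate kinases NME1 and NME4, which form triphosphates in the cytosol and in mitochondria, fell in C-Myc-sh and were not called in Slc7a5-sh. NME1 gave 14.11, 14.11 and 14.04 in Ctrl-sh, 14.12, 13.99 and 14.25 in Slc7a5-sh, and 12.66, 12.67 and 12.63 in C-Myc-sh. NME4 gave 11.15, 11.19 and 11.20 in Ctrl-sh, 11.14, 10.91 and 11.12 in Slc7a5-sh, and 9.66, 9.59 and 9.57 in C-Myc-sh. Both were far lower in C-Myc-sh than in either other group. NME1 changed by -1.43 ± 0.06 in C-Myc-sh (adjusted p = 9.07e-11) and by 0.03 in Slc7a5-sh (adjusted p = 0.743), and NME4 by -1.58 ± 0.08 (adjusted p = 5.85e-10) and -0.12 (adjusted p = 0.289).

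**Figure D3:**
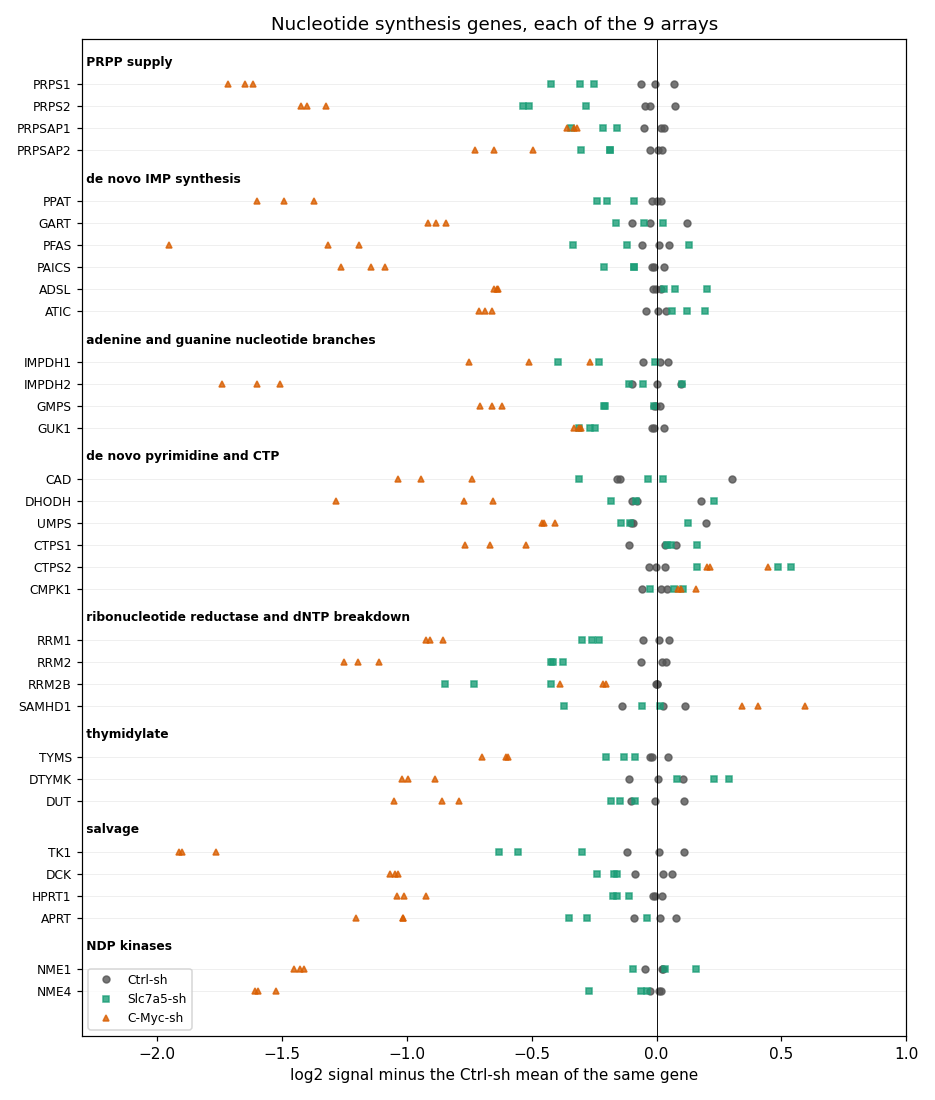
Log2 signal of each of the 33 genes on each of the 9 arrays, minus the Ctrl-sh mean of the same gene, grouped by role (grey circles Ctrl-sh, green squares Slc7a5-sh, orange triangles C-Myc-sh). For 30 genes the 3 triangles lie left of the 3 circles, and for CTPS2, SAMHD1 and CMPK1 they lie right of them. For RRM2B the squares lie furthest left.

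Isoenzymes and partners were compared by the difference of their log2 signals within each array, over 9 pairs and 18 comparisons with Ctrl-sh. With 3 arrays against 3 the two-sided exact permutation test cannot give a p below 0.10, so no pair could pass the threshold. In 10 of the 18 comparisons the arrays did not overlap, with a p of 0.10 and 0.18 after Benjamini-Hochberg adjustment over the 18. The share of such separations among pairs of other genes was not computed, so the 10 only describe these pairs. In C-Myc-sh the difference of the changes was 1.11 for IMPDH1 minus IMPDH2, -0.94 for CTPS1 minus CTPS2 and -0.92 for RRM2 minus RRM2B. It was -0.81 for TK1 minus DCK, -0.28 for PRPS1 minus PRPS2, 0.29 for PRPSAP1 minus PRPSAP2, 0.29 for RRM1 minus RRM2 and 0.14 for NME1 minus NME4. For HPRT1 minus APRT it was 0.09, with overlapping arrays (exact permutation p = 0.7). In Slc7a5-sh only RRM1 with RRM2 (0.14) and NME1 with NME4 (0.16) had arrays that did not overlap, and the p-values of the other 7 pairs lay between 0.2 and 1.0 by the same exact permutation test.

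**Figure D4:**
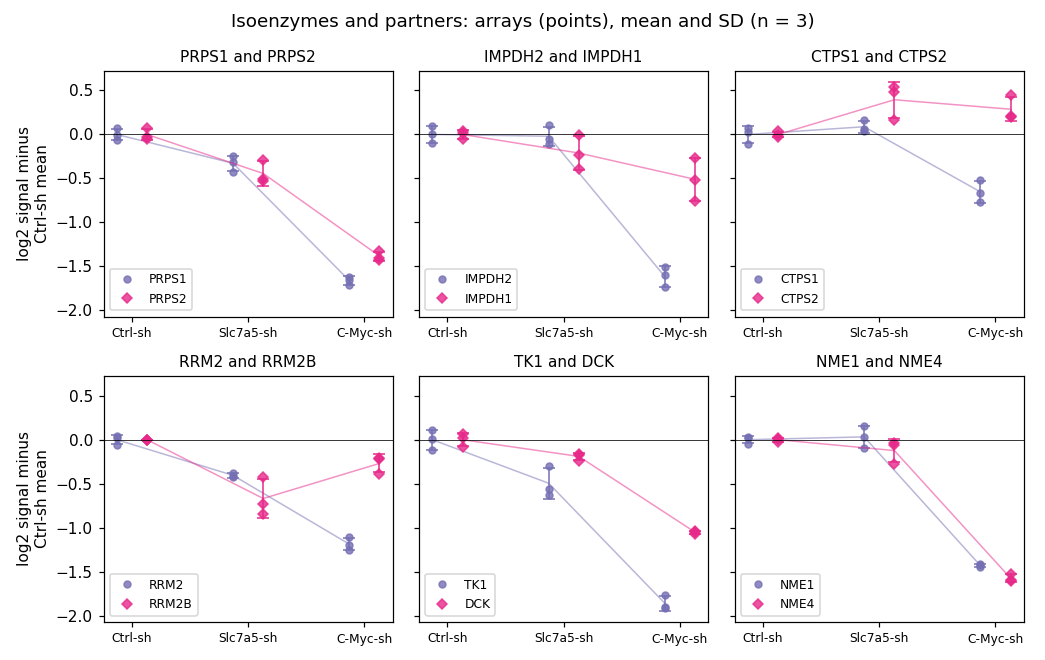
Log2 signal minus the Ctrl-sh mean of the same gene for 6 pairs of isoenzymes or partners. Points are arrays, bars are the mean with SD (n = 3), and lines join the means of one gene. The C-Myc-sh means part most for IMPDH1 with IMPDH2, by 1.11, and least for NME1 with NME4, by 0.14.

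Most of these genes were measured by more than 1 probe set, which gives a second reading from the same arrays. The 33 genes had 79 probe sets, of which 71 lay at or above the level required for testing, and 20 genes had more than 1 of these. When all 22166 such probe sets were tested separately, 22.4% were called lower in C-Myc-sh and 9.38% in Slc7a5-sh. Of the 38 probe sets of these genes that were not used for the gene, 22 were called lower and 2 higher in C-Myc-sh, and 8 lower and 1 higher in Slc7a5-sh. Of the 38, 0 were called in the opposite direction to a called probe set used for its gene. The sizes differed for DUT, where another probe set gave -2.25 in C-Myc-sh and -0.80 in Slc7a5-sh (adjusted p = 3.5e-05), against -0.90 and -0.14 for the one used. TK1 likewise had a second reading of -2.33 and -1.04. Further probe sets gave -1.94 for PRPS1, -1.77 for PRPS2 and -1.72 for PPAT in C-Myc-sh. A dim probe set of PPAT was not called (0.29, adjusted p = 0.28), and the unused probe sets of GART were called in both directions in Slc7a5-sh, 1 lower (-0.46, adjusted p = 0.00709) and 1 higher (0.72, adjusted p = 0.013), while the one used was not called there. When all probe sets of each gene were averaged, dim ones included, 25 instead of 30 genes were called lower in C-Myc-sh. GUK1 (-0.44) and DTYMK (-0.37) then lost the call, GUK1 also in Slc7a5-sh (adjusted p = 0.531), and in C-Myc-sh HPRT1 (0.29), PRPSAP1 (0.65) and UMPS (0.23) had the other sign and were not called.

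**Figure D5:**
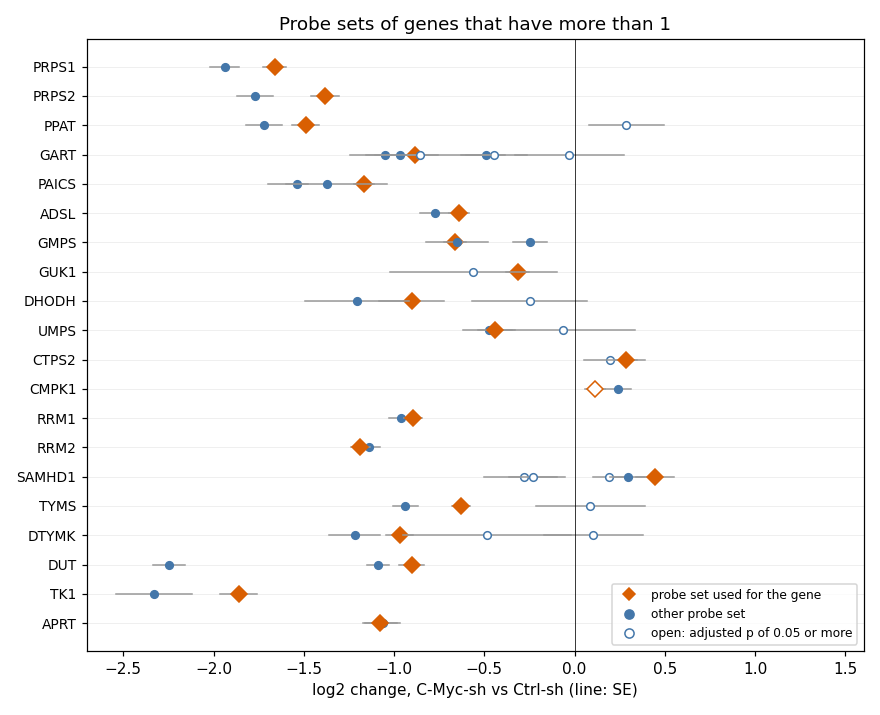
Log2 change in C-Myc-sh against Ctrl-sh for every tested probe set of the 20 genes that have more than 1. Diamonds are the probe sets used for the gene, circles the others, open symbols have an adjusted p of 0.05 or more, and lines are the SE. For DUT the values run from -2.25 to -0.90, and for SAMHD1 they lie on both sides of 0.

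A further list held other genes of nucleotide metabolism, which interconvert, degrade or transport nucleotides. Of its 59 listed genes 41 were tested: 12 fell and 13 rose in C-Myc-sh with a median change of -0.04, and 6 fell and 7 rose in Slc7a5-sh with a median of -0.08. These shares are near those of all tested genes given above (26.2% lower and 28.7% higher in C-Myc-sh, 11.0% and 14.3% in Slc7a5-sh). Among the called genes with the largest changes, 3 enzymes of adenosine and purine nucleosides fell in both knockdowns. ADA, adenosine deaminase, changed by -0.92 in Slc7a5-sh and by -1.41 in C-Myc-sh, ADK, adenosine kinase, by -0.53 and -1.48, and PNP, purine nucleoside phosphorylase, by -0.57 and -1.28. DCTD, which deaminates dCMP to dUMP, rose by 1.02 (adjusted p = 6.6e-06) and 0.96 (adjusted p = 6.22e-07), to 202% and 194% of Ctrl-sh. Other genes rose in C-Myc-sh and were not called in Slc7a5-sh: CMPK2, a mitochondrial kinase known as interferon-inducible, by 2.50, AMPD3, an AMP deaminase, by 1.58, and DPYD, which degrades uracil and thymine, by 1.52. The 3 were also higher in C-Myc-sh than in Slc7a5-sh, by 2.87, 1.75 and 1.86.

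Genes that supply one-carbon units and ribose phosphate were also lower in C-Myc-sh or not called. Of 22 listed genes 15 were tested, of which 11 fell and 0 rose in C-Myc-sh (median -0.78) and 5 fell and 0 rose in Slc7a5-sh (median -0.16). Over all tested genes, 26.2% fell and 28.7% rose in C-Myc-sh, and 11.0% fell and 14.3% rose in Slc7a5-sh. The change in C-Myc-sh was -1.61 for TKT, the transketolase of the pentose phosphate pathway, -1.56 for SLC19A1, the reduced folate carrier, and -1.20 for RPIA, which forms ribose 5-phosphate. These 3 were not called in Slc7a5-sh. MTHFD2L, a mitochondrial folate enzyme, changed by -0.72 in Slc7a5-sh (adjusted p = 6.61e-05) and by -1.16 in C-Myc-sh, and FPGS, which retains folates in the cell, by -0.58 and -1.07.

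Most markers of S phase and proliferation were lower in C-Myc-sh, and a part of them in Slc7a5-sh. Of 20 genes 18 fell and 0 rose in C-Myc-sh (median -0.66). In Slc7a5-sh 11 fell, 0 rose and 9 were not called (median -0.20). UHRF1 changed by -1.69 in C-Myc-sh and -0.60 in Slc7a5-sh, E2F2 by -1.71 and -0.65, and GINS2 by -1.55 and -0.22. CDC6 (-1.54) and MKI67 (-1.42) also fell in C-Myc-sh but were not called in Slc7a5-sh (-0.20 and -0.10). Of 18 tested p53 targets, 9 rose and 4 fell in C-Myc-sh and 5 rose and 3 fell in Slc7a5-sh. Both lists stand beside shares over all tested genes of 28.7% higher and 26.2% lower in C-Myc-sh, and 14.3% and 11.0% in Slc7a5-sh. CDKN1A, the cell cycle inhibitor p21, rose by 0.74 in Slc7a5-sh and by 0.64 in C-Myc-sh, and MDM2 changed by -0.54 and -0.79. The summed linear signal of the B-cell markers ran from 49394 to 53362 in the control arrays, from 50420 to 52010 in Slc7a5-sh and from 74323 to 80925 with the MYC hairpin. The summed T and NK cell markers, at 340 to 441, 294 to 404 and 343 to 448, overlapped between the groups. The myeloid sums overlapped too (183.9 to 285.2, 202.2 to 310.5 and 157.8 to 308.5). Epithelial and fibroblast markers summed to 807.7 to 968.1 in Ctrl-sh, 676.2 to 847.2 in Slc7a5-sh and 570.5 to 764.0 in C-Myc-sh. For this list the C-Myc-sh arrays lay below the control arrays. The part that fewer S-phase cells or other changes of cell state have in the values of the nucleotide genes was not tested, and in such bulk samples fewer cells of one kind and less RNA per cell cannot be told apart.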

How the data were processed

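Total RNA of 9 Daudi cultures (3 groups of 3 by sample title) was labelled with biotin from the 3′ end and hybridised to arrays. The deposited table holds log2 signals, which the authors made with MAS5 per the submitters' processing notes; annotation build and version are not given in the sources used here. Every array had a 2% trimmed mean near 497 on the linear scale, so signals are relative. Of 54613 probe sets, 41091 have exactly 1 symbol; the brightest of a gene's probe sets, averaged over the 9 arrays, stands for it, and 11250 genes with a mean of at least 5.77 were tested. The tests used limma 3.58.1 in R 4.3.3 (3 group means, eBayes with trend, two-sided, Benjamini-Hochberg, called under 0.05), after a check on simulated data. Pairs used exact permutation tests. Array values are given, per role, for the genes with the largest rise and fall. Members, roles and lists were chosen with earlier results of these data known, and the E2F and CCAAT searches were added later. Promoter windows come from RefSeq. The alternatives were other filters, quantile normalization, no trend, other probe-set rules, a floor, 6 arrays only, a replicate block and leaving out each array.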

Additional observations from a re-analysis of the deposited data

How the results depend on the processing

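Of the gene results under all alternatives, 1781 were counted as unchanged, 54 lost and 21 gained the call, and 7 reversed. A change of sign counted as a reversal only where the gene was called in the main or the alternative setting. The unchanged results kept their side of the threshold but include changes of sign without a call. Examples are CAD (-0.11 to 0.28) and UMPS (-0.04 to 0.22) in Slc7a5-sh with the mean of probe sets. With all probe sets of each gene averaged, the change became 0.29 for HPRT1, 0.65 for PRPSAP1 and 0.23 for UMPS in C-Myc-sh against Ctrl-sh, and 0.55 for HPRT1 and 0.0104 for UMPS against Slc7a5-sh. Without probe sets ending in _s_at or _x_at, PPAT became 0.29 against Ctrl-sh and 0.12 against Slc7a5-sh, since a dim probe set then stood alone for it. For HPRT1, PRPSAP1 and UMPS, every probe set at or above the level required for testing had a negative change in both comparisons. Their positive averages thus came from dimmer probe sets that the mean included. In Slc7a5-sh the called genes went from 2843 to 1581 with the mean of probe sets. The genes called lower went from 11 to between 7 and 12 when an array was left out, and the gene called higher from 1 to 2 with the 75th percentile filter, 2 with quantile normalization, 0 with the mean of probe sets and between 0 and 2 when an array was left out. The 2 genes called higher in C-Myc-sh became 1 without a trend, 0 with the mean of probe sets, 1 without _s_at or _x_at probe sets, and 1 to 2 when an array was left out, and the 2 higher than in Slc7a5-sh became 1 with the mean of probe sets. For the genes called lower in C-Myc-sh leaving out an array gave 29 to 30. Among pairs, PRPSAP1 minus PRPSAP2 in Slc7a5-sh went from -0.0151 to 0.18 with the mean of probe sets and ranged from -0.0658 to 0.0563 when an array was left out, without Slc7a5-sh replicate 1 at the upper end. HPRT1 minus APRT became -0.0494 in Slc7a5-sh with the mean of probe sets, and ranged from -0.0096 to 0.14 in C-Myc-sh, the low end without C-Myc-sh replicate 2. Same-numbered arrays of different groups had deviations that correlated at -0.0235 to 0.0179, and differently numbered arrays at -0.045 to 0.0407. No effect shared by same-numbered arrays was thus visible. These correlations cannot show whether such samples were prepared together. With the replicate block 2 genes instead of 1 were called higher and 9 instead of 11 lower in Slc7a5-sh, and the block moved no count of the other comparisons of these genes. Signals near background limit what can be read: 8 probe sets of these genes lay below the level required for testing.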
